A study of Mus musculus with 12 samples.

Results

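The insulin-like growth factor (IGF) axis and its fetal RNA-binding regulators were followed in progenitor B cells with and without the transcription factor Sox4. The genes were Igf1, Igf2, Igf1r, Igf2r, Igfbp4, Igf2bp1, Igf2bp2, Igf2bp3 and Lin28b, and every probe that the array annotation assigns to them was taken, by symbol or gene identifier, whatever its values. That gave 24 probes of 45281 on the array, standing for 8 of the 9 genes, and no probe is named for Igf2bp2 here. RNA came from C57BL/6 embryonic fetal liver and was hybridised to single-colour Illumina bead arrays, 3 arrays in each of 4 groups. The loss experiment set cells with floxed Sox4 alleles (Sox4fl/fl) against Sox4fl/fl cells that also carry SE-Cre. The gain experiment started from cells of the second genotype that had been immortalized by the p190 Bcr-Abl fusion kinase and set those labelled HA against those labelled HA-Sox4. Both gain groups therefore share the floxed alleles, SE-Cre and the oncogene. Every group carries the floxed alleles, and none carries SE-Cre with wild-type Sox4, so an effect of the recombinase cannot be told apart from the deletion. The labels do not say whether the HA and HA-Sox4 cells descend from 1 immortalized culture, nor whether the 3 samples of a group are separate animals or cultures. The p-values thus speak only of the spread among these samples, and that spread may be technical. The sources used here give no age of the embryos and do not explain the name SE-Cre.

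IGF1 and IGF2 are secreted growth factors that signal through the receptor tyrosine kinase encoded by Igf1r, while the receptor encoded by Igf2r binds IGF2 and carries it to lysosomes without a kinase signal. IGF-binding proteins such as the product of Igfbp4 hold the ligands outside the cell and limit their access to the receptor. Igf2 and Igf2r are imprinted genes, expressed mainly from the paternal and the maternal allele respectively in most fetal tissues of the mouse. The IGF2BP proteins bind messenger RNAs, Igf2 among them, and are made mostly in the embryo. LIN28B blocks maturation of let-7 microRNAs and is known in mice as a factor of fetal-type lymphopoiesis, with Igf2bp3 placed downstream of it.

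Sox4 was read first as a check of the labels. Its brighter probe fell from a mean log2 intensity of 10.61 in Sox4fl/fl cells to 4.50 in SE-Cre cells (log2 difference -6.10, limma adjusted p = 3.64e-10). In the gain experiment it was detected on none of the 3 HA arrays and rose at least 1.18-fold in HA-Sox4 cells (limma adjusted p = 0.0326). That call was lost with no detection filter (adjusted p = 0.0615), with the replicate number as a block (adjusted p = 0.0614), and without HA replicate 1 or 3 or HA-Sox4 replicate 1 or 3 (adjusted p of 0.0547 to 0.0932). The probe passed the detection filter there through the HA-Sox4 arrays alone, so its p-value is no separate support. The other Sox4 probe passed it in neither experiment. Its log2 difference was -0.51 on loss and -0.07 on gain, where 0 arrays detected it and the groups overlapped. Median raw intensity was 83.4 to 90.2 on the loss arrays and 114.5 to 139.2 on the gain arrays, and 36.1% to 40% of probes were detected. All 10 B cell progenitor markers on the array were detected in at least 1 group, and Cd79b, Vpreb1, Vpreb2, Igll1, Ebf1, Il7r and Rag1 on all 12 arrays. Rag1, a subunit of the V(D)J recombinase, changed by -3.47 on loss (log2, adjusted p = 5.20e-07) and rose by 4.23 on gain (adjusted p = 2.11e-06). Rag2, the other subunit, fell at least 1.51-fold on loss (adjusted p = 0.000351) and rose at least 1.56-fold on gain (adjusted p = 0.00742). Dntt, which adds bases at the joints, fell at least 1.44-fold on loss (adjusted p = 0.0235) and rose at least 1.68-fold on gain (adjusted p = 0.000677). Rag2 and Dntt were detected on 0 SE-Cre and 0 HA arrays, so they passed the detection filter only through the group where they were higher. Their p-values are thus no separate support. Leaving out SE-Cre replicate 1 or 2, or Sox4fl/fl replicate 2 or 1, ended the Dntt call on loss, as did testing every probe, using the deposited processed values or omitting the background correction (adjusted p of 0.0501 to 0.118). Pax5 went the other way on loss, with 0 of 3 Sox4fl/fl arrays and all 3 SE-Cre arrays detected. It rose at least 1.63-fold (limma adjusted p = 0.0024), the 1 marker of the 10 called higher there, against 4 called lower. Pax5 passed the detection filter there through the SE-Cre arrays alone, so its p-value is no separate support either. Of the 8 hepatocyte markers, each by its brightest probe over the 12 arrays, Alb, Afp, Ttr, Apoa1, Fgb, Serpina1a and Ahsg were detected on 0 of 12 arrays. Apoa2 was detected on 1 Sox4fl/fl, 1 SE-Cre and 2 HA-Sox4 arrays. By the brightest probe within the loss arrays, 6 of the 8 were undetected on all 6. In both experiments 0 of the 8 passed the detection filter. In these bulk samples, fewer cells of a type and less RNA per cell cannot be told apart.

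In the loss experiment both ligands and the clearance receptor were higher in the SE-Cre cells, and Igf1r, Igfbp4, Igf2bp3 and Lin28b were lower. A probe was tested where 3 or more of the 6 arrays detected it (detection p-value under 0.05), and was called where its limma p, adjusted over all tested probes by the method of Benjamini and Hochberg, was under 0.05. Of the 24 probes 15 were tested and 11 were called, 5 higher and 6 lower, in an experiment where 15.3% of all tested probes were called (6.98% higher, 8.31% lower). In the gain experiment Igf2, Igf2r and Igfbp4 were higher in HA-Sox4 cells. There 10 probes were tested and 5 were called, all 5 higher, against 41.2% of all tested probes (18.6% higher, 22.6% lower). The 15 and 10 probes are those that passed the detection filter, not all of the 24. On loss the Lin28b probe passed it through the Sox4fl/fl arrays alone, so its call is no separate support. Below, groups are said not to overlap where all 3 values of one lay above all 3 of the other, which held for 32.4% of all tested probes on loss and 53.6% on gain.

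**Figure D1:**
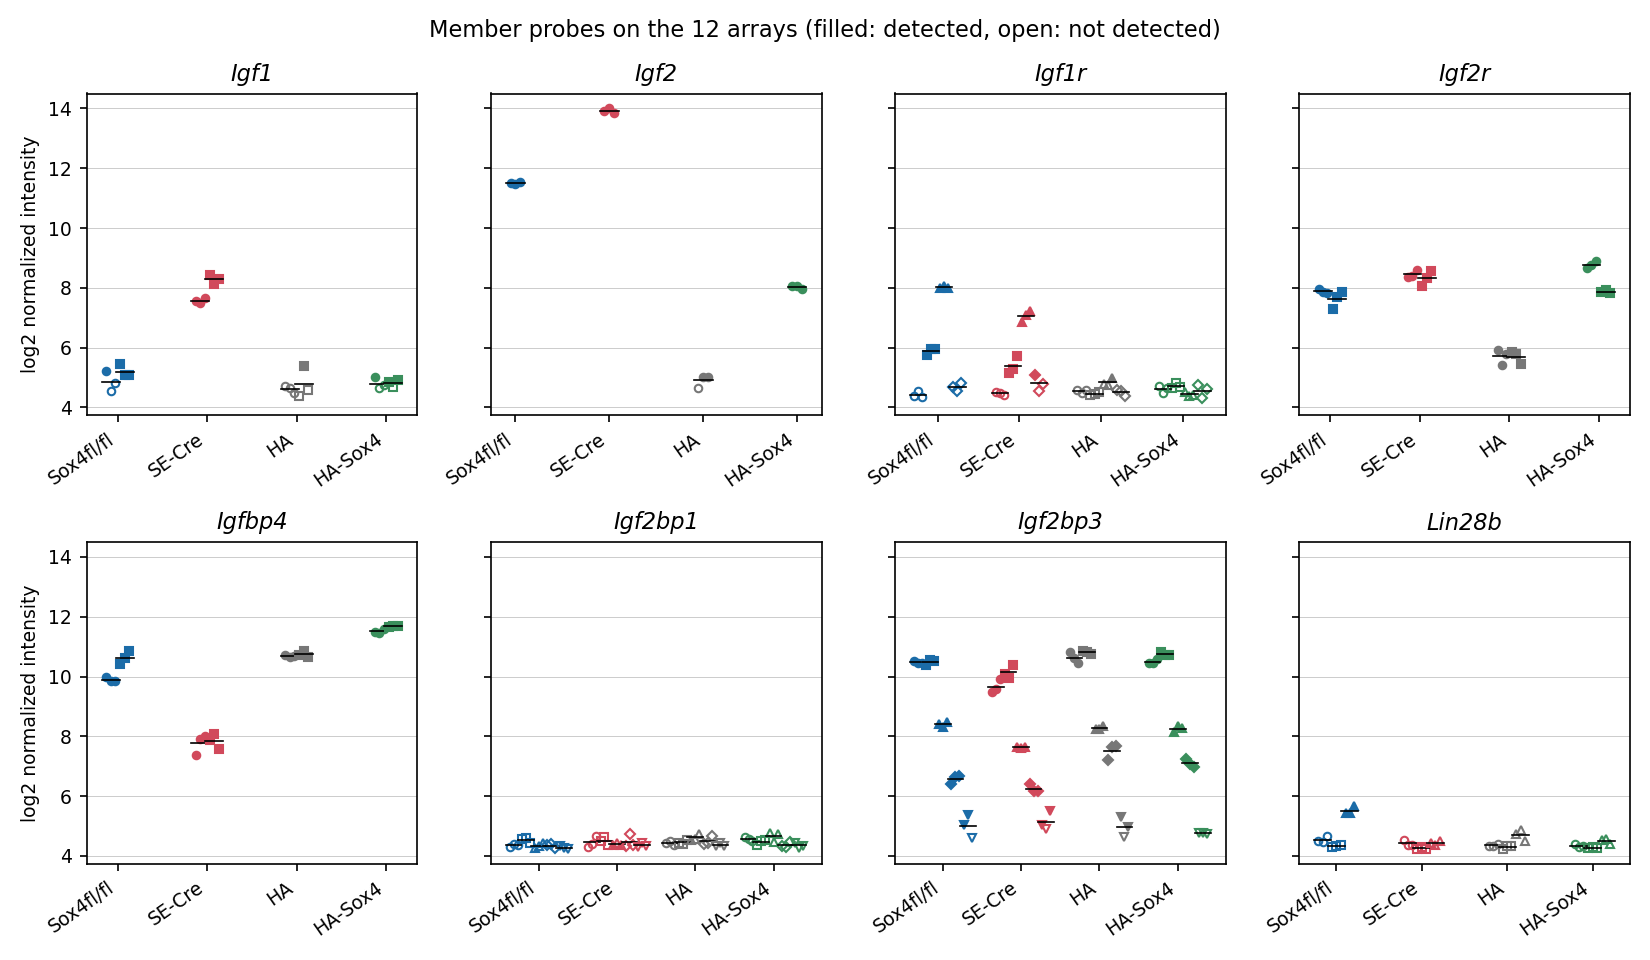
Log2 intensity of each of the 24 probes (symbols) in the 4 groups, after normalization of the 12 arrays together, with 1 panel a gene; lines are group means of 3 arrays, filled symbols are detected values and open symbols are not. Igf2 runs from a mean of 4.90 in HA cells to 13.92 in SE-Cre cells, while the 5 Igf2bp1 probes lie near the floor on every array.

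Igf2, the main fetal growth factor of the axis, had 1 probe (ILMN_2597769). Its reading on the Sox4fl/fl arrays was 10.75, 10.71 and 10.78 (log2 intensity, loss arrays normalized together), and on the SE-Cre arrays it was 13.02, 13.19 and 12.94. The groups did not overlap and were far apart against their spread, with raw intensities of 1619 to 1968 and 7919 to 9420. The difference was 2.30 (log2, SE 0.14, adjusted p = 2.73e-07), or 4.94-fold. On the HA arrays the probe read 4.86, 5.35 and 5.33 and was detected on 2 of 3, and on the HA-Sox4 arrays it read 8.56, 8.56 and 8.43. Again every HA-Sox4 value lay above every HA value, and the difference was 3.33 (log2, SE 0.14, adjusted p = 4.69e-06), or 10.1-fold. Without background correction the gain difference was 1.75. Igf2 was thus lower in the primary group that has Sox4 and higher in the immortalized group labelled HA-Sox4.

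Across the 12 arrays, normalized together, mean Igf2 was 4.90 ± 0.22 in HA, 8.03 ± 0.07 in HA-Sox4, 11.52 ± 0.04 in Sox4fl/fl and 13.92 ± 0.09 in SE-Cre cells (log2, SD, n = 3). No neighbours in that order overlapped, and the means spanned 9.02 log2 units. On the mean of the SE-Cre arrays 137 of 45281 probes were brighter than the Igf2 probe, on that of the Sox4fl/fl arrays 953, on that of the HA-Sox4 arrays 6935 and on that of the HA arrays 16769. Brightness differs between probes for technical reasons too, so these ranks place the probe and do not measure RNA copies. The labels also give the primary samples as array-1 and the immortalized samples as array-2, a split that cannot be told apart from immortalization.

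RefSeq lists 4 start windows of 300 bases for Igf2 (250 before to 50 after the start). The window with the most CpG pairs, 24 against a median of 7 over 32851 mouse windows, lies at chr7:142658755-142659054 (GRCm38.p6, minus strand) and is shown because Igf2 moved in both experiments. It is written in full in lower case.

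Igf2 start window: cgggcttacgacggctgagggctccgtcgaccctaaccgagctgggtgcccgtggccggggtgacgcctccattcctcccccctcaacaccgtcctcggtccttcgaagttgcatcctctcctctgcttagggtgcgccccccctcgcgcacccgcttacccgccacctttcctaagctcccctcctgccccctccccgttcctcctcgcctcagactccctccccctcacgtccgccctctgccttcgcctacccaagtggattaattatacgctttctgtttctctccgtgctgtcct

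The core of the Sox motif, ACAAAG, was searched on both strands and is in none of the 4 Igf2 windows. It is in 18.7% of all windows, and the longer form AACAAAG in 5.85%, so the search says only that these letters are not in these windows.

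Igf1, the ligand that mediates growth hormone action after birth, had 2 probes. The brighter (ILMN_2769884) read 4.91, 4.65 and 4.65 in Sox4fl/fl and 7.72, 7.42 and 7.60 in SE-Cre cells (log2). The SE-Cre arrays were all higher, and the difference of 2.84 (SE 0.15, 95% interval 2.52 to 3.17, adjusted p = 8.00e-08) was 7.17-fold, or 1.46 on the log2 scale without background correction. The other (ILMN_1225565) read 4.74, 4.35 and 4.51 against 6.84, 6.76 and 6.93, a difference of 2.31 (SE 0.15, adjusted p = 4.58e-07), and was detected on 1 of 3 Sox4fl/fl arrays. Both probes of the gene thus rose on loss. Among the gain arrays the brighter probe read 4.52, 5.78 and 4.76 in HA and 5.14, 4.90 and 5.21 in HA-Sox4 cells. These groups overlapped, and the difference was 0.07 (SE 0.31, adjusted p = 0.886). HA replicate 2 stood above the other 2 HA arrays, and without it the difference was 0.46 (adjusted p = 0.0472). The dimmer probe was not tested there.

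Of 7 macrophage and myeloid markers on the array, Lyz2, the lysozyme of myeloid cells, moved the same way as Igf1 on loss, rising by 1.97 (log2, adjusted p = 2.58e-06). The summed linear intensity of the 7 was 178 to 200 on the Sox4fl/fl arrays and 359 to 389 on the SE-Cre arrays. On the gain arrays it was 543 to 627 in HA and 215 to 257 in HA-Sox4 cells. Each experiment was normalized apart and read by its own brightest probes, so the sums are not compared between experiments. Adgre1, Itgam, Elane and Cd14 were detected on 0 of 12 arrays, Mpo on 1 and Csf1r on 3. In the gain experiment Lyz2, read there by another probe, fell by 2.52 on the log2 scale (adjusted p = 4.47e-05) while Igf1 did not pass the test. Whether myeloid cells have a part in the Igf1 difference was not tested.

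The Igf1 start window, at chr10:87860861-87861160 (GRCm38.p6, plus strand), is 1 of 2 among the genes' 11 windows that hold the Sox core, read here on the minus strand as CTTTGT and set in capitals. The other is the Igf1r window, at chr7:67952007-67952306 (plus strand). Both are shown because these genes moved in opposite directions on loss. No window was available for Igf2bp1, so that gene was not searched. A match is a description of the letters and not a binding site.

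Igf1 start window: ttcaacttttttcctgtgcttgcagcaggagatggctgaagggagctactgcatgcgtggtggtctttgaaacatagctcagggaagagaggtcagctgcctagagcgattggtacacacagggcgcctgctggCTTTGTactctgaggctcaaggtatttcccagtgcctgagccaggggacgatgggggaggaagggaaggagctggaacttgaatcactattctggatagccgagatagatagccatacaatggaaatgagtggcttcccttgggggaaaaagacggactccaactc

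Igf1r start window: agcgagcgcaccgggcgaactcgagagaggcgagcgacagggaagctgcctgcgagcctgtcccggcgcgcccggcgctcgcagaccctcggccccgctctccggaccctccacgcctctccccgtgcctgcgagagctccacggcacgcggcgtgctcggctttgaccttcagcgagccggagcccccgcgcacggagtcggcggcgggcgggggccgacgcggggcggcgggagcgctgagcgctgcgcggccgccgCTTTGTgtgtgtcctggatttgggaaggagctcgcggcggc

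Igf1r, the signalling receptor for both ligands, had 4 probes. The brightest (ILMN_1249824) read 7.27, 7.34 and 7.27 in Sox4fl/fl and 6.14, 6.36 and 6.50 in SE-Cre cells. All SE-Cre values were lower, and the mean changed by -0.96 (log2, SE 0.14, adjusted p = 0.000624), or 1.95-fold, and by -0.60 without background correction. A dimmer probe (ILMN_1239663) gave -0.37 and did not pass the test (adjusted p = 0.131), passing only where the 12 arrays were fitted together (adjusted p = 0.0224, difference -0.49). The other 2 probes were not tested. On gain no Igf1r probe passed the detection filter. The probe that fell on loss read 5.03, 4.98 and 5.28 in HA cells, with 1 array detected, and 4.70, 4.52 and 4.56 in HA-Sox4 cells, with none. The receptor's messenger was therefore measured above background mainly in the primary cells. Over the 12 arrays together the order of this probe was Sox4fl/fl (8.02), SE-Cre (7.06), HA (4.84) and HA-Sox4 (4.44), with no overlap between neighbours, although the last 2 levels are at the background.

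Igf2r, the IGF2 clearance receptor, had 2 probes (ILMN_2931095 and ILMN_2931096), detected on all 12 arrays. On gain the first read 6.37, 5.82 and 6.21 in HA and 9.12, 9.23 and 9.37 in HA-Sox4 cells, and the second 6.31, 6.21 and 5.84 against 8.33, 8.40 and 8.31. Neither probe's groups overlapped. The differences were 3.11 (log2, SE 0.15, adjusted p = 8.54e-06) and 2.23 (SE 0.13, adjusted p = 1.99e-05), or 8.62-fold and 4.69-fold, and 2.02 and 1.30 without background correction. In the loss experiment the first probe read 7.25, 7.14 and 7.10 in Sox4fl/fl and 7.65, 7.69 and 7.90 in SE-Cre cells, and the second 6.56, 6.97 and 7.13 against 7.33, 7.63 and 7.87. The SE-Cre values were higher without overlap, by 0.58 (SE 0.14, adjusted p = 0.0148) and 0.72 (SE 0.19, adjusted p = 0.0209). These small rises were not stable calls. The first lost its call with scaling to a common median (adjusted p = 0.0636) and without Sox4fl/fl replicate 2 (adjusted p = 0.0541) or 3 (adjusted p = 0.0534). The second lost it with no detection filter (adjusted p = 0.106) and without Sox4fl/fl replicate 1 (adjusted p = 0.0910), SE-Cre replicate 2 (adjusted p = 0.0588) or SE-Cre replicate 3 (adjusted p = 0.0787). Like Igf2, the imprinted ligand that its product binds, Igf2r was thus higher both in the primary cells with SE-Cre and in the immortalized cells labelled HA-Sox4. Its start window at chr17:12769657-12769956 (GRCm38.p6, minus strand) is shown beside that of Igf2 for this reason and holds 34 CpG pairs and no ACAAAG on either strand.

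Igf2r start window: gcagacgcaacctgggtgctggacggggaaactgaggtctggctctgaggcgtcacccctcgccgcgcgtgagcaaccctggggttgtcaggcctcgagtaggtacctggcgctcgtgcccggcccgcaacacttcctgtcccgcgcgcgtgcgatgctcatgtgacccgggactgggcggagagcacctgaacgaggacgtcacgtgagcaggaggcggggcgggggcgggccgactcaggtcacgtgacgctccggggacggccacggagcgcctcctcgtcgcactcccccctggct

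Igfbp4, whose product binds and holds IGFs, had 2 probes (ILMN_2694955 and ILMN_1258988), and both changed in the same direction as the brighter Sox4 probe in each experiment. The first read 9.69, 9.88 and 10.10 in Sox4fl/fl and 7.14, 7.36 and 6.84 in SE-Cre cells, and the second 9.25, 9.11 and 9.12 against 6.66, 7.19 and 7.28. The SE-Cre cells were lower without overlap, with log2 differences of -2.77 (SE 0.17, adjusted p = 3.41e-07) and -2.11 (SE 0.17, adjusted p = 3.63e-06), the first being 6.83-fold. With the gain arrays the first probe read 11.20, 11.33 and 11.16 in HA and 12.16, 12.19 and 12.19 in HA-Sox4 cells, and the second 11.21, 11.15 and 11.17 against 11.99, 11.95 and 12.08. The rise with HA-Sox4 was smaller, 0.95 (SE 0.08, adjusted p = 0.000138) and 0.83 (SE 0.08, adjusted p = 0.000213), and again the groups did not overlap. Igfbp4 was the 1 gene of the 8 that was lower in SE-Cre cells and higher in HA-Sox4 cells with a call in both.

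**Figure D2:**
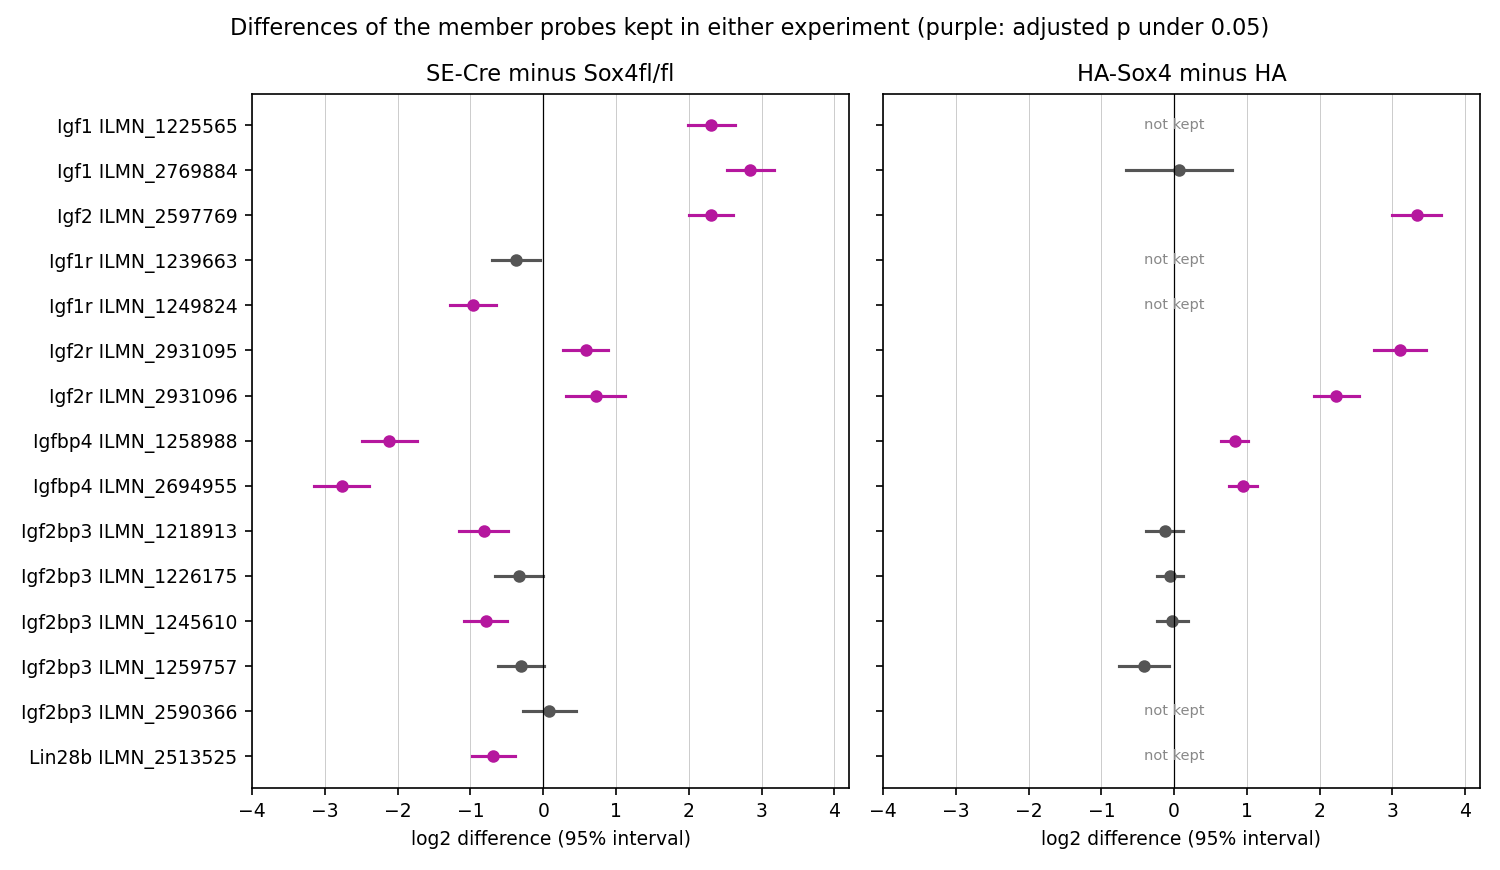
Log2 differences with 95% intervals of the probes tested in either experiment, SE-Cre minus Sox4fl/fl on the left and HA-Sox4 minus HA on the right, with purple for an adjusted p under 0.05. Igf2 lies to the right of 0 in both panels (2.30 and 3.33), as does Igf2r, while Igfbp4 is at -2.77 and -2.11 on the left and at 0.95 and 0.83 on the right.

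Among the RNA-binding genes, Igf2bp3 had 5 probes, and 2 of them (ILMN_1218913 and ILMN_1245610) were called on loss. The first read 9.79, 9.71 and 9.72 in Sox4fl/fl and 8.74, 8.85 and 9.19 in SE-Cre cells, a difference of -0.82 (log2, SE 0.15, adjusted p = 0.00306). The second read 7.70, 7.61 and 7.78 against 6.91, 6.88 and 6.92, a difference of -0.79 (SE 0.13, adjusted p = 0.00157). Both were lower on every SE-Cre array. The other 3, ILMN_1226175, ILMN_1259757 and ILMN_2590366, did not pass the test, at -0.34 (adjusted p = 0.171), -0.30 (adjusted p = 0.193) and 0.08 (adjusted p = 0.793), so the probes of the gene did not give 1 answer. Which transcripts each probe reads is not stated in the sources used here. In the gain experiment the first probe read 11.30, 11.10 and 10.96 in HA and 10.95, 10.94 and 11.07 in HA-Sox4 cells, which overlap, with a difference of -0.13 (95% interval -0.39 to 0.13, adjusted p = 0.379). Of the other tested probes ILMN_1226175 was at -0.05 (adjusted p = 0.608), ILMN_1245610 at -0.02 (adjusted p = 0.857) and ILMN_1259757 at -0.42 (adjusted p = 0.0591). The last of these passed under 8 alternatives, the lowest adjusted p being 0.0105 without HA replicate 1.

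Igf2bp1, a paralog of Igf2bp3, had 5 probes and was detected on no array. Lin28b had 3 probes, 2 of them detected on no array. Its remaining probe (ILMN_2513525) read 4.89, 4.90 and 5.07 on the Sox4fl/fl arrays, all 3 detected, and 4.27, 4.22 and 4.31 on the SE-Cre arrays, none detected. The groups did not overlap, and the fitted log2 difference was -0.69 (SE 0.14, limma adjusted p = 0.00447). Without background correction the difference was -0.25 (limma adjusted p = 0.0392). The probe passed the detection filter only through the Sox4fl/fl arrays, where it was highest, so these p-values are no separate support. With SE-Cre values raised to the lowest detected signal of their array, the messenger fell at least 1.28-fold. The raised values were not tested. In HA cells it read 4.96, 5.14 and 4.68 and in HA-Sox4 cells 4.70, 4.75 and 4.53, none of them detected. The only group with a Lin28b signal on this array was thus Sox4fl/fl, and the signal was faint.

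The change with Sox4 was then compared between the experiments in 1 fit over the 12 arrays, as HA-Sox4 minus HA against Sox4fl/fl minus SE-Cre. Equal changes in both kinds of cell give a value of 0. The brighter Sox4 probe itself changed by 6.55 in primary and 0.64 in immortalized cells, a value of -5.91 (limma adjusted p = 9.98e-09). The other Sox4 probe was not tested. Unequal changes of the genes are therefore not set against an equal change in measured Sox4. Of the 24 probes 15 were tested and 12 differed from 0, against 17.6% of all tested probes. For Igf2 the change was -2.40 with Sox4 in primary cells and 3.13 in immortalized cells, and the value was 5.53 (log2, SE 0.17, 95% interval 5.17 to 5.90, adjusted p = 3.83e-10). For the first Igf2r probe it was 3.63 (SE 0.19, adjusted p = 3.13e-08), and for the second 2.88 (SE 0.24, adjusted p = 2.56e-06). The Igf1 probes gave 3.14 (SE 0.31, adjusted p = 9.73e-06) and 2.88 (SE 0.22, adjusted p = 1.07e-06). Without background correction the value was 3.87 for Igf2, 2.30 and 1.69 for Igf2r and 1.69 and 1.28 for Igf1, all with a call. The change of the Igf1 probes with Sox4 was -3.10 and -2.71 in primary cells and 0.04 and 0.18 in immortalized cells. The second of these probes did not pass the detection filter on gain. Igfbp4 rose with Sox4 in both experiments, and the rise was smaller in the immortalized cells, with -1.85 for its first probe (SE 0.20, adjusted p = 2.82e-05) and -1.29 for its second (SE 0.20, adjusted p = 0.000587).

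Igf1r gave -1.36 (SE 0.17, adjusted p = 7.99e-05) and, for its dimmer probe, -0.23 (adjusted p = 0.485). Neither probe passed the detection filter on gain. Lin28b gave -1.28 (SE 0.17, adjusted p = 0.000148), with the immortalized groups and the SE-Cre group all below detection. Its probe passed the detection filter only through the 3 Sox4fl/fl arrays, where it was highest, so this p-value is no separate support. The Igf2bp3 values were -0.95 (adjusted p = 0.00313) and -0.80 (adjusted p = 0.00169) for the probes called on loss, and for ILMN_1259757, ILMN_1226175 and ILMN_2590366 they were -0.74 (adjusted p = 0.0248), -0.40 (adjusted p = 0.135) and -0.07 (adjusted p = 0.904). The value of ILMN_1259757 lost its call in 7 of the fits that leave out an array and with a replicate block, where adjusted p reached 0.0750.

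**Figure D3:**
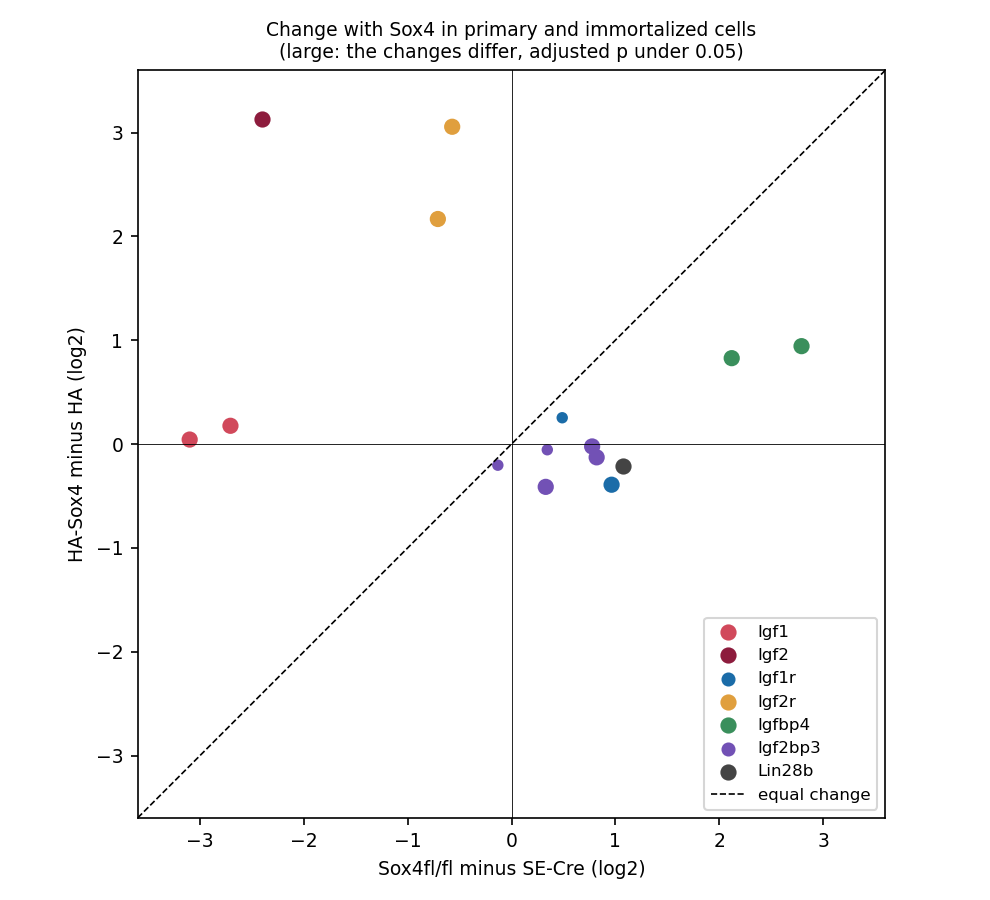
Log2 change with Sox4 in immortalized cells (HA-Sox4 minus HA, vertical) against that in primary cells (Sox4fl/fl minus SE-Cre, horizontal) for the 15 tested probes, 12 arrays together; the dashed line marks equal change and large points differ from it. Igf2 lies at -2.40 and 3.13 and the first Igf2r probe at -0.57 and 3.06, above the line, while the Igfbp4 probes are positive on both axes and below it.

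The genes whose probes ran most like these over the 12 arrays were found by the root mean square (RMS) difference of centred log2 values, among 16359 probes with 1 gene symbol. The Igfbp4 probe was nearest to Chd3 (RMS 0.16), Lrig3 (0.25) and Gcat (0.28). Igf2r was nearest to Fn1 (0.28), Zfp579 (0.33) and Bhlhe40 (0.33), and Igf1 to Trbv13-2 (0.29), Tph1 (0.35) and Nav1 (0.38). Igf1r was nearest to Art4 (0.24), Tm7sf3 (0.35) and Gas7 (0.37), and Lin28b to P2ry14 (0.13), Lef1 (0.16) and Egln1 (0.16). The values were centred but not scaled, so a wide span alone makes RMS differences larger. Group means spanned 1.08 log2 units for Lin28b and 9.02 for Igf2, so RMS values are not compared between these genes. Igf2 had no near neighbour by this unscaled measure. Its nearest genes were Kit (1.33), the stem cell factor receptor, Tenm4 (1.37) and Xist (1.57). Kit was at 10.66, 11.16, 5.72 and 7.96 in Sox4fl/fl, SE-Cre, HA and HA-Sox4 cells (mean log2), in the same order of groups as Igf2 but over a smaller span. Xist was at 9.38, 9.56, 4.74 and 4.70 in these groups, so the primary and immortalized cells also differed in this gene. Whether that difference has a part in the Igf2 levels was not tested.

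Related genes were read from 5 lists, each gene by its brightest tested probe, where 16.4% of all tested genes were called on loss (7.49% higher, 8.93% lower) and 44.2% on gain (21.3% higher, 22.8% lower). Of 15 other IGF ligand, receptor and binding protein genes, 13 were on the array, and 5 were tested on loss with 0 higher and 1 lower. That gene was Insr, the insulin receptor, which fell from 8.20 ± 0.12 to 7.42 ± 0.29 (log2, SD, n = 3; difference -0.78, adjusted p = 0.00781). On gain Insr was the 1 gene tested and rose from 8.16 ± 0.07 to 9.55 ± 0.09 (difference 1.40, adjusted p = 2.61e-05). The remaining genes of the list were not detected on enough gain arrays to be tested, or not on the array.

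Of 25 IGF receptor signalling genes 21 were on the array. On loss 18 were tested, 1 was higher and 2 lower, or 4 lower without background correction, and the median difference was 0.02 against 0.02 over all genes. Mtor, the growth kinase, rose by 1.05 (log2, adjusted p = 0.000549), Foxo1, a transcription factor that AKT inhibits, changed by -0.95 (adjusted p = 0.00218), and Irs2, a receptor substrate, fell at least 1.22-fold (adjusted p = 0.00968). The Irs2 probe passed the detection filter there through the Sox4fl/fl arrays alone, so its p-value is no separate support. On gain 19 were tested, 7 were higher and 1 lower, with a median difference of 0.12 against -0.05 over all genes. Gab1, a docking adaptor, rose by 2.33 (adjusted p = 1.41e-05), and Irs2 by 2.31 (adjusted p = 0.000164) from a level detected on 1 of 3 HA arrays. Mtor rose by 0.99 (adjusted p = 7.06e-05) and Foxo1 by 1.07 (adjusted p = 0.000439). Foxo1 and Irs2 thus moved in the direction of the brighter Sox4 probe in both experiments, whereas Mtor was higher in SE-Cre and in HA-Sox4 cells.

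Of 18 Lin28 and let-7 pathway genes 17 were on the array. On loss limma called 0 of the 14 tested, and 4 had an unadjusted p under 0.05; under the alternatives up to 3 were called, with the 12 arrays fitted together. On gain 2 of 12 were higher and 2 lower. The median difference of the list was 0.07 on loss and 0.14 on gain. Myc and Ccnd2, growth and cell cycle genes that let-7 can repress, changed by -0.67 (adjusted p = 0.000612) and -0.63 (adjusted p = 0.00164). Dgcr8, of the microRNA processing complex, rose by 0.50 (adjusted p = 0.0156, lost without HA-Sox4 replicate 1 or 2), and the cell cycle factor E2f5 by 0.39 (adjusted p = 0.0217, lost with a replicate block and without HA replicate 1 or 3 or HA-Sox4 replicate 3).

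The 10 IGF2BP messenger RNA-binding partners were all on the array. On loss limma called 0 of 9 tested, and 1 had an unadjusted p under 0.05; 1 was called, as lower, with scaling to a common median, a trended robust variance, array weights, a replicate block or without Sox4fl/fl replicate 3. The median difference was -0.12 on loss and -0.03 on gain. On gain Matr3 rose by 0.35 (adjusted p = 0.0111) and Fmr1 changed by -0.30 (adjusted p = 0.0263), out of 9 tested, and both calls were lost with scaling to a common median (adjusted p = 0.222 and 0.207). The Fmr1 call was also lost with a replicate block (adjusted p = 0.0554), with no detection filter (adjusted p = 0.0563), with the 12 arrays fitted together (adjusted p = 0.0685) and without any 1 HA array or HA-Sox4 replicate 1 or 2 (adjusted p of 0.0543 to 0.0806). Of 12 imprinted growth genes 11 were on the array and 2 were tested in each experiment. Dlk1, a Notch-related membrane protein, changed by -1.21 on loss (adjusted p = 0.000112, detected on 1 of 3 SE-Cre arrays), and Ndn, a growth suppressor, rose by 1.60 on gain (adjusted p = 0.00153, detected on 1 of 3 HA arrays).

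**Figure D4:**
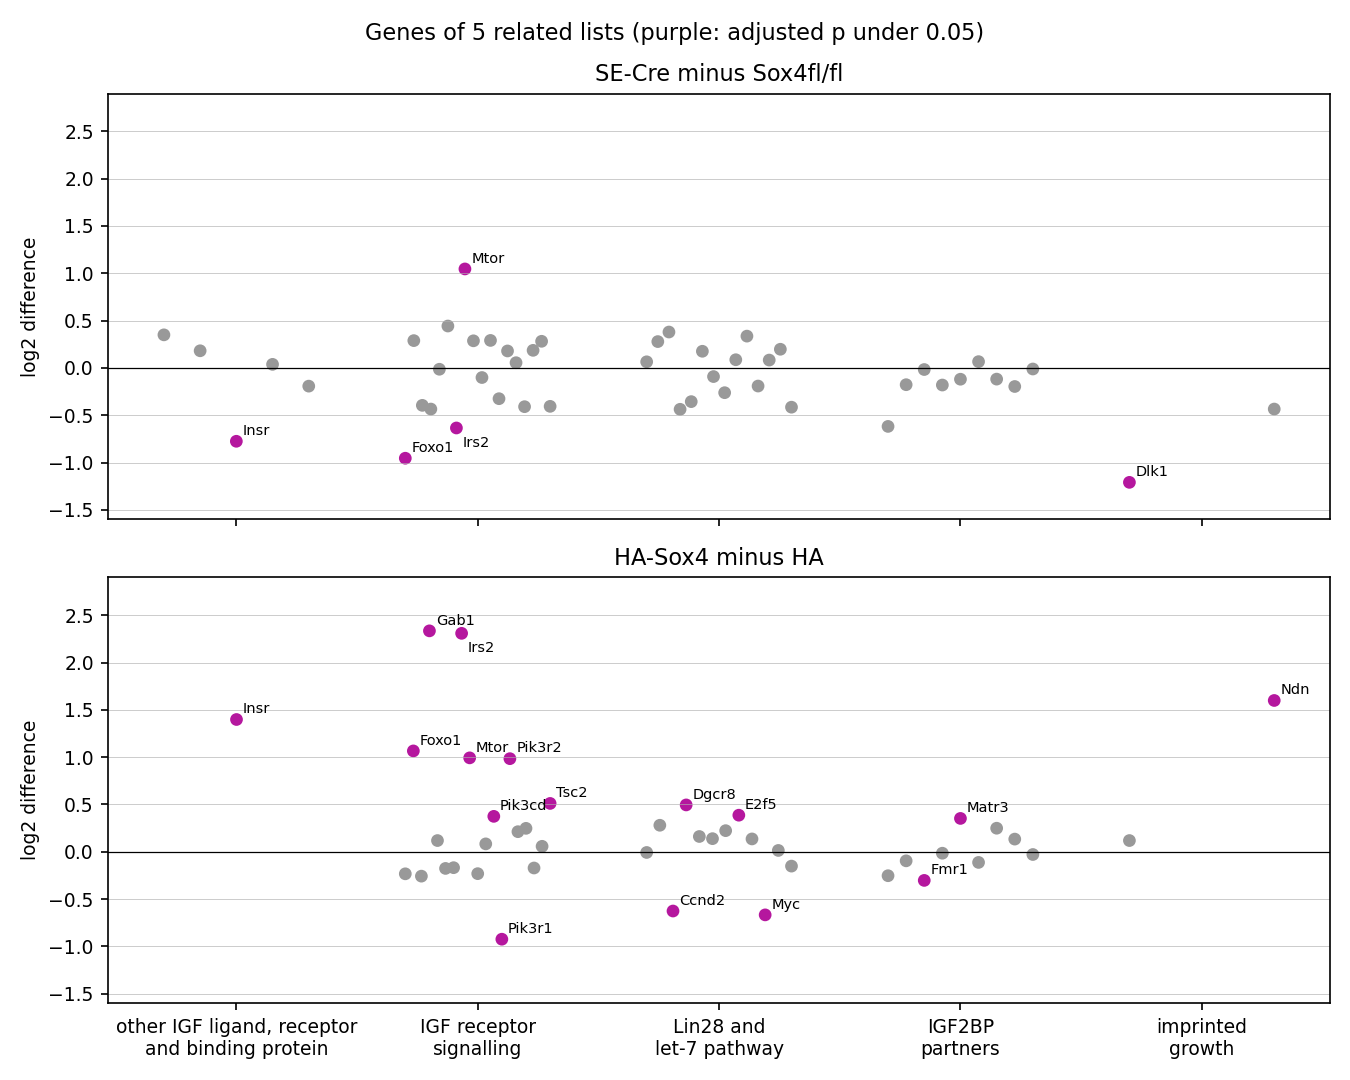
Log2 differences of the tested genes of 5 related lists, loss above and gain below, 1 point a gene by its brightest tested probe, with purple and a name for an adjusted p under 0.05. Insr, Irs2 and Foxo1 are below 0 on loss and above 0 on gain, and no gene of the Lin28 and let-7 list or the IGF2BP partner list is purple on loss.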

How the data were processed

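Per the labels, total RNA of progenitor B cells from fetal liver was labelled with biotin after amplification and read on 12 arrays. The authors deposited non-normalized intensities, 1 per probe and array, each with a detection p-value per the file headers, and a table of processed intensities. The submitters' processing notes name R 3.0.1. The sources used here do not name the scanner software.

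The non-normalized intensities of each experiment were background-corrected (negative controls were inferred from detection p-values), offset by 16, quantile-normalized and put on the log2 scale with neqc (limma 3.58.1, R 4.3.3). Groups were compared with lmFit and eBayes, and adjustment ran over all tested probes. For levels over the 4 groups and the difference between experiments, the 12 arrays were normalized together and a probe needed detection on at least 3. A group detected on 0 of 3 arrays gives an "at least" fold, with its values raised to the lowest detected signal of their array. The adjusted p beside such a fold is from the fit to the values before they were raised. A probe with such a fold passed the detection filter through the other group alone, so that p is no separate support. The steps were tested on simulated data.

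The genes, lists, tests and alternatives were chosen with earlier results of these data known. Named are all the genes, up to 4 called members of a list with the smallest p, and the 3 nearest genes for each one whose brightest tested probe has group means that span over 1 log2 unit. Ebf1, Cd79b, Vpreb1, Vpreb2, Igll1 and Il7r are named as markers. Lists of erythroid, stromal and endothelial, and T and NK cell markers were also read: on loss limma called 0 of their 2, 1 and 1 tested genes, and on gain 1 of 2 (Tfrc, 0.54, adjusted p = 0.0021), 0 of 1 and none tested. Of the 10 B cell progenitor markers 1 was higher and 4 lower on loss, and 3 were higher and 1 lower on gain. The alternatives tried were the authors' processed values, no background correction, scaling to a common median, other detection filters, joint normalization or fitting of the 12 arrays, array weights, a trended robust variance, leaving out each array, and a block for the replicate number. The files used here name no slide or scan. Start windows are from RefSeq (GRCm38.p6).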

Additional observations from a re-analysis of the deposited data

Results flagged for a closer look

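The change with Sox4 (HA-Sox4 minus HA against Sox4fl/fl minus SE-Cre, log2) differed between immortalized and primary cells for 12 probes by limma's test of that difference over 12 arrays. Positive values were 5.53 for Igf2, 3.63 and 2.88 for Igf2r, and 3.14 and 2.88 for Igf1, or 3.87, 2.30, 1.69, 1.69 and 1.28 in that order without background correction. Negative values were -1.85 and -1.29 for Igfbp4, -1.36 for Igf1r, -1.28 for Lin28b, and -0.95, -0.80 and -0.74 for Igf2bp3. Without background correction these were -1.48, -0.95, -0.80, -0.45, -0.87, -0.59 and -0.42 in that order. The Lin28b probe, the Igf1r probe and the dimmer Igf1 probe (2.88) did not pass the detection filter on gain. Their values thus set the loss change against gain readings near background. The brighter Sox4 probe, not among the 12, gave -5.91. In Igf2 and Igf2r the changes of the 2 experiments had opposite signs, in Igfbp4 the same sign. For Igf2r the calls on loss were not stable. With 3 arrays a group, single outlying arrays were not looked for by a formal test.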

How the results depend on the processing

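Over all alternatives, no called difference of a probe changed its sign. On loss 240 of 251 repeated values kept their direction and their side of the threshold, 7 lost a call (all of them Igf2r), 2 gained one and 2 uncalled values changed sign. On gain 152 of 167 kept both, 9 gained a call (8 of them 1 Igf2bp3 probe, 1 of them Igf1) and 6 uncalled values changed sign. For the difference between experiments 242 of 255 kept both, 8 lost and 2 gained a call, all of Igf2bp3, and 3 uncalled values changed sign. The sign changes concern values near 0, whose ranges over the fits without 1 array were -0.040 to 0.19 for Igf2bp3 ILMN_2590366 on loss and -0.28 to 0.12 for its difference between experiments, -0.065 to 0.031 for Igf2bp3 ILMN_1245610 on gain (0.028 with scaling to a common median too), and -0.19 to 0.46 for Igf1 ILMN_2769884 on gain. Normalizing the 12 arrays together changed the probes called on loss from 2516 to 2186 and on gain from 7218 to 7381, and also fitting them together gave 3978 and 5717. Scaling to a common median moved the share of loss calls that were higher from 45.6% to 32.4%, and of gain calls from 45.2% to 55.6%. Samples of 1 number did not deviate together (correlations of -0.02 to 0.04), and with a replicate block 11 probes of these genes were called on loss, 5 on gain and 11 for the difference. Requiring detection on every array left out, on loss, 1 probe each of Igf1, Igf2bp3 and Lin28b, and on gain Igf1 and Igf2. Signal over background limits Lin28b, Igf1r on gain and Igf1 on gain, and fold changes of dim probes depend on the background correction.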
